A study of Mus musculus with 24 samples.

Results

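The genes followed here code for feedback regulators of ERK and were measured by bulk RNA sequencing of the mouse corpus callosum, the large bundle of myelinated axons between the hemispheres. They are the dual-specificity phosphatases Dusp1, Dusp4, Dusp5 and Dusp6, the Sprouty genes Spry2 and Spry4, the Spred genes Spred1 and Spred2, and the ETS transcription factor Etv5. These are 9 of the 54446 gene IDs of the deposited table, and all 9 were among the 15216 genes with a mean of at least 0.5 FPKM that were tested. The 9 were picked by name with results of these same libraries known, so their differences are given as a description, with standard errors and no p-values.

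The groups were cuprizone BTKi (n = 8), cuprizone vehicle (n = 8), naive BTKi (n = 4) and naive vehicle (n = 4), 24 libraries in all. Cuprizone is a copper chelator whose feeding kills oligodendrocytes and strips myelin from this tract, and BTKi is an inhibitor of Bruton's tyrosine kinase, a kinase of B cells and myeloid cells that microglia also carry. In the cuprizone mice the inhibitor was given once disease had been induced. The compound, dose, timing, strain and age are not stated in the labels used here. Nor do the labels say whether each library came from a separate animal, so every test here compares samples whose spread may in part be technical.

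Growth factor receptors, calcium entry and synaptic activity switch on the Ras, Raf, MEK and ERK kinases, and active ERK raises the transcription of proteins that shut the same pathway down. Dual-specificity phosphatases remove the activating phosphates from ERK and related kinases, Sprouty and Spred proteins act upstream at Ras and Raf, and Etv5 is a transcription factor induced by the same signal. Their mRNA levels are for that reason often read as an output of the pathway. In white matter, ERK signalling in oligodendrocytes is known for its part in the growth of the myelin sheath.

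The promoter windows of the 3 phosphatase genes that were lower with the inhibitor in cuprizone mice are shown because these 3 moved in the same direction there. Each is the 250 bases before the start site in RefSeq's GRCm38.p6 table, written 5′ to 3′ on the gene's strand, with motif matches in capitals. Dusp1 is chr17:26508473-26508722 on the minus strand, Dusp5 is chr19:53528895-53529144 on the plus strand, and Dusp6 is chr10:99262981-99263230 on the plus strand.
Dusp1: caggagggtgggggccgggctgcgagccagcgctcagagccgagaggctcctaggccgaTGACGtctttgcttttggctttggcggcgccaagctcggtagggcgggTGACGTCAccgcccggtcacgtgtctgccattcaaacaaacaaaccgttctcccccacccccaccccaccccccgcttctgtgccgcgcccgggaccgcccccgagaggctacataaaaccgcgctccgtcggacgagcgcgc
Dusp5: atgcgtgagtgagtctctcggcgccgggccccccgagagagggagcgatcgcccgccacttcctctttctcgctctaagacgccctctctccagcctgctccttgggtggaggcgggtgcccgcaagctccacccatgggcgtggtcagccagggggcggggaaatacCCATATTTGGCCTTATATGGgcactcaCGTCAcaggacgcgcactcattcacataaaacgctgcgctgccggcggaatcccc
Dusp6: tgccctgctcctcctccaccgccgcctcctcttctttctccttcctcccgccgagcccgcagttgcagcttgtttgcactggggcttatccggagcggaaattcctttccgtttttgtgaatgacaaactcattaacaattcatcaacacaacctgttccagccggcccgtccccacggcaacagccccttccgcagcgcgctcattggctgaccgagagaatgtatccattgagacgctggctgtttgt
The motifs searched on both strands, over these bases and the 50 bases after the start site, were TGACGTCA and its partial form TGACG (cAMP response element), TGANTCA (AP-1), CCGGAA (ETS factors) and the serum response element. The Dusp1 window held 1 TGACGTCA, whose first base lies 143 bases before the start site, and a separate TGACG at 191 bases. TGACG also lies inside TGACGTCA on each strand. The Dusp5 window held 2 adjoining serum response elements, at 82 and 72 bases before the start site, and 1 TGACG on the opposite strand at 55 bases. The Dusp6 window held none of these letters.

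Of the other members, Spred2 had 1 TGACG at 51 bases before its start site, Spry2 had 1 CCGGAA in the bases after its start site, and the windows of Spred1 and Etv5 held none of the motifs. Dusp4 and Spry4 were not matched. Among all 32851 promoter windows of this length, 1.79% held TGACGTCA, 20.8% TGACG, 7.81% TGANTCA, 14.9% CCGGAA and 1.63% the serum response element. A match is a run of letters and not a shown binding site.

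The 24 libraries held 26460000 to 30940000 fragments (median 30400000), as estimated from the steps between low FPKM values. That gave Dusp4, the member with the fewest, an estimated 228 to 403 fragments per library (with GENCODE M21 exon lengths), and Spred1, the member with the most, 4638 to 7462, so counting error at the median was 5.55% for Dusp4 and 1.29% for Spred1. Myelin markers were present in every library and T and B cell markers summed to at most 1.12 FPKM. General neuron markers summed to 1975 to 2221 FPKM in cuprizone BTKi and 2097 to 2383 in cuprizone vehicle. In naive BTKi they summed to 2087 to 2327 FPKM, and in naive vehicle to 1959 to 2325. Striatal and hippocampal neuron markers were present in every library as well. Which cells the members' RNA came from was not tested. Markers of neighbouring tissue were present too: 6 choroid plexus genes summed to 400.8 to 1261 FPKM in cuprizone BTKi, 30.7 to 1523 in cuprizone vehicle, 470.3 to 2535 in naive BTKi and 1158 to 1836 in naive vehicle. Libraries 1, 4 and 7 of cuprizone vehicle were the poorest in choroid plexus RNA, and a call lost without them is named beside its result.

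Measured per length, as FPKM averaged over all 24 libraries, the order of levels was Spred1 29.9, Spred2 27.6, Dusp6 25.9, Etv5 24.7, Dusp1 23.4, Spry2 23.2, Dusp5 7.22, Dusp4 3.87 and Spry4 3.81. Spred1 lay above 83.4% of tested genes and Spry4 above 32.1%. Neighbours from Spred1 down to Spry2 overlapped in their library ranges. Spry2, at 19.0 to 26.5 FPKM, did not overlap Dusp5, at 4.80 to 9.55 FPKM. Dusp4 and Spry4 covered nearly the same range, 2.79 to 4.77 FPKM for Dusp4 and 2.95 to 5.19 FPKM for Spry4.

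**Figure D1:**
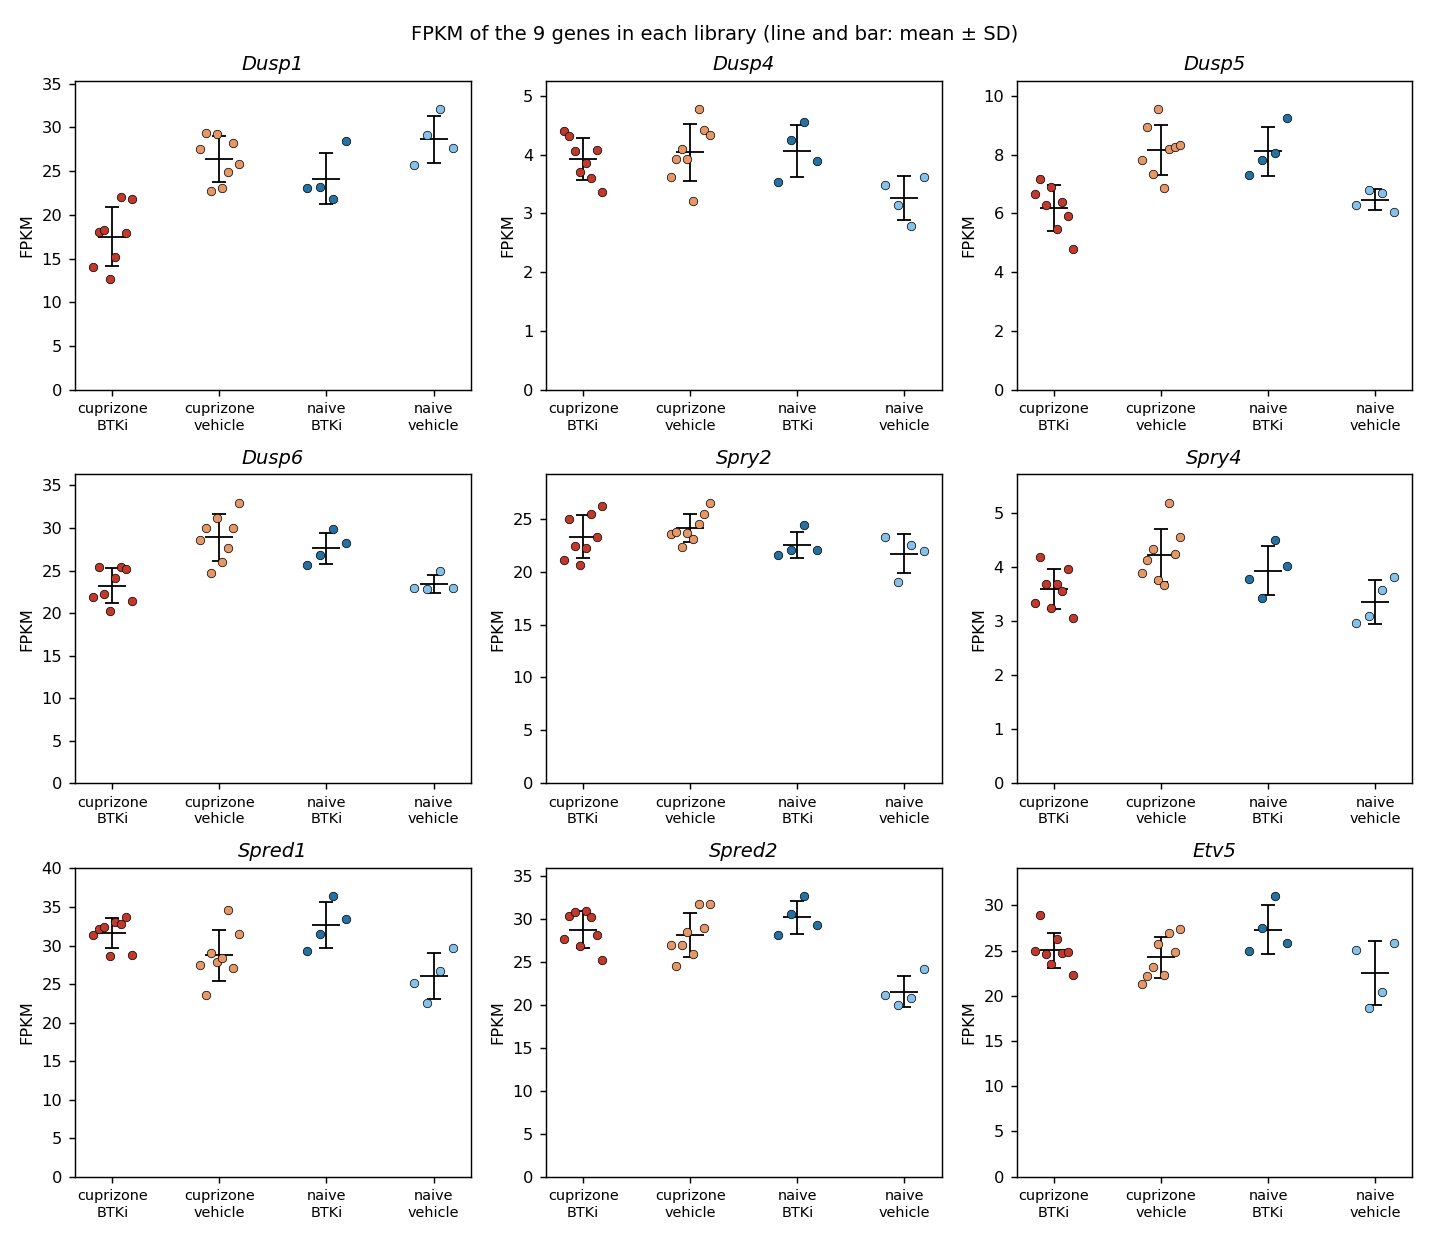
FPKM of each of the 9 genes (vertical axis, from 0) in every library of the 4 groups (horizontal axis), with points for libraries and lines for the mean ± SD. Dusp1 in cuprizone BTKi lies at 12.7 to 22.0 FPKM, below all 8 cuprizone vehicle libraries, and Spred2 in naive vehicle lies at 20.0 to 24.3 FPKM, below all 4 naive BTKi libraries.

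Dusp1 encodes a nuclear phosphatase of ERK, p38 and JNK and is itself an immediate early gene. Cuprizone BTKi libraries ran from 12.7 FPKM through a median of 18.0 to 22.0, and cuprizone vehicle libraries from 22.8 through 26.7 to 29.4. Naive BTKi libraries had 23.0, 23.2, 21.9 and 28.4 FPKM, and naive vehicle libraries had 25.7, 29.1, 32.1 and 27.7. The highest cuprizone BTKi library thus stayed under the lowest cuprizone vehicle library, while the naive groups overlapped. The mean was 17.5 ± 3.38 FPKM in cuprizone BTKi and 26.4 ± 2.64 in cuprizone vehicle (SD, n = 8 each), or 66.4% of the cuprizone vehicle level.

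The Dusp1 gene model in GENCODE M21 overlaps Ergic1, a gene of the early secretory pathway, on the opposite strand. The library kit keeps strand, but no label used here says whether the counting did. Ergic1 averaged 41.5 FPKM in cuprizone BTKi, 41.9 in cuprizone vehicle, 44.3 in naive BTKi and 43.8 in naive vehicle, a smaller difference between the cuprizone groups than that of Dusp1.

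Dusp5, a nuclear phosphatase selective for ERK (chr19:53529109-53542431, GRCm38, plus strand), was a lower-level transcript. It ran from 4.80 through a median of 6.34 to 7.17 FPKM in cuprizone BTKi and from 6.87 through 8.23 to 9.55 in cuprizone vehicle. It had 7.31, 7.83, 8.04 and 9.26 FPKM in naive BTKi and 6.29, 6.81, 6.70 and 6.06 in naive vehicle. The cuprizone groups overlapped at their edges only, and the naive BTKi libraries all lay above the naive vehicle ones. Cuprizone vehicle and naive BTKi reached nearly the same mean, 8.16 ± 0.845 FPKM (SD, n = 8) and 8.11 ± 0.825 (SD, n = 4). Cuprizone BTKi and naive vehicle sat lower, at 6.20 ± 0.782 (SD, n = 8) and 6.47 ± 0.351 (SD, n = 4).

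Dusp6, the cytoplasmic ERK phosphatase (chr10:99263231-99267489, GRCm38, plus strand), showed the same arrangement of groups at a higher level. It ran from 20.3 through 23.2 to 25.4 FPKM in cuprizone BTKi and from 24.7 through 29.3 to 33.0 in cuprizone vehicle. It had 25.6, 26.8, 29.8 and 28.3 FPKM in naive BTKi and 22.9, 22.9, 25.0 and 22.9 in naive vehicle. As for Dusp5, the naive groups did not overlap and the cuprizone groups did.

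Dusp4, a nuclear phosphatase related to Dusp1 (chr8:34807297-34819894, GRCm38, plus strand), had close means in the cuprizone groups. It averaged 3.92 ± 0.355 FPKM in cuprizone BTKi and 4.03 ± 0.488 in cuprizone vehicle (SD, n = 8 each). In naive mice it averaged 4.05 ± 0.443 FPKM with BTKi and 3.26 ± 0.371 with vehicle (SD, n = 4 each), with overlapping libraries.

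Spry2 (chr14:105891947-105896819, GRCm38, minus strand) and Spry4 (chromosome 18) encode adaptor-like inhibitors of receptor tyrosine kinase signalling. Spry2 had the narrowest span of group means relative to its level, with 23.3 FPKM in cuprizone BTKi, 24.1 in cuprizone vehicle, 22.5 in naive BTKi and 21.7 in naive vehicle. Spry4 averaged 3.59 ± 0.371 FPKM in cuprizone BTKi and 4.22 ± 0.490 in cuprizone vehicle (SD, n = 8 each), and 3.93 ± 0.454 in naive BTKi and 3.36 ± 0.407 in naive vehicle (SD, n = 4 each). Its libraries overlapped in both drug comparisons.

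Spred1 (chr2:117121374-117182279, GRCm38, plus strand) and Spred2 (chr11:19924375-20024026, GRCm38, plus strand) encode membrane proteins, and Spred1 is known to bring neurofibromin to Ras. Spred2 had 28.2, 30.7, 32.7 and 29.4 FPKM in naive BTKi and 21.2, 20.0, 20.8 and 24.3 in naive vehicle. It ran from 25.2 through 29.2 to 31.0 FPKM in cuprizone BTKi and from 24.6 through 27.8 to 31.7 in cuprizone vehicle. Naive vehicle was the low group, and its 4 libraries lay below all others of Spred2. Spred1 averaged 31.6 FPKM in cuprizone BTKi, 28.7 in cuprizone vehicle, 32.7 in naive BTKi and 26.0 in naive vehicle, with overlap between every pair of groups compared.

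Etv5 (chr16:22381309-22439719, GRCm38, minus strand), a PEA3 family factor, averaged 25.0 ± 1.97 FPKM in cuprizone BTKi and 24.2 ± 2.30 in cuprizone vehicle (SD, n = 8 each). It averaged 27.3 ± 2.69 in naive BTKi and 22.5 ± 3.53 in naive vehicle (SD, n = 4 each). Its naive vehicle libraries had 25.1, 18.6, 20.4 and 25.9 FPKM, the widest relative spread of Etv5 in any group. Naive vehicle library 2 was the lowest of its group in Etv5, Spry2, Spred1 and Spred2.

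The effect of the inhibitor in cuprizone mice was the first comparison. A gene is said to have risen, fallen or passed where limma's adjusted p was under 0.05 over all 15216 tested genes, on log2(FPKM + 0.5). Dusp1 fell by 0.59 on the log2 scale (SE 0.09), Dusp5 fell by 0.37 (SE 0.07) and Dusp6 fell by 0.31 (SE 0.06). So 3 of 9 members passed, all lower, in a comparison in which 0.177% of tested genes passed and 0.138% were lower. Of all tested genes 6 were higher and 21 lower, against 6 and 15 with median ratio scaling and 8 and 13 with quantile normalization. The genes were chosen with results of these libraries known, so nothing is read from that count or from the counts of members in the comparisons below. Spry4, with a log2 difference of -0.21 (SE 0.07), and Spred1, with 0.14 (SE 0.06), did not pass.

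The remaining 4, Dusp4, Spry2, Spred2 and Etv5, had log2 differences of -0.03, -0.05, 0.03 and 0.05. The median of the 9 was -0.05, and that of all tested genes was -0.02. Only Dusp1 had libraries that did not overlap between the groups, as 0.105% of tested genes had in the lower direction. In bulk tissue fewer cells of a type and less RNA per cell cannot be told apart. General neuron markers summed to 1975 to 2221 FPKM in cuprizone BTKi and 2097 to 2383 in cuprizone vehicle, and 0 of 7 passed with limma (1 of 7 lower at an unadjusted p under 0.05). Their median log2 difference was -0.03, against 0.70 for choroid plexus, 0.30 for red blood cell, 0.21 for mature oligodendrocyte and 0.14 for striatal markers. The other marker lists ran from -0.05 for hippocampal neurons to 0.07 for endothelium. No marker of these lists passed, and their part in the result was not tested.

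Without libraries 1, 4 and 7 of cuprizone vehicle, 0 of 9 members passed in this comparison (limma; 3 of 9 in the full set), while 11 of all tested genes did. The log2 differences were then -0.53 for Dusp1, -0.34 for Dusp5 and -0.28 for Dusp6. In those 3 libraries Dusp1 had 27.5 to 29.3 FPKM and Dusp6 28.6 to 31.2, against 22.8 to 29.4 and 24.7 to 33.0 in the other 5 of the group. The Dusp5 call was also lost without cuprizone vehicle library 2.

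**Figure D2:**
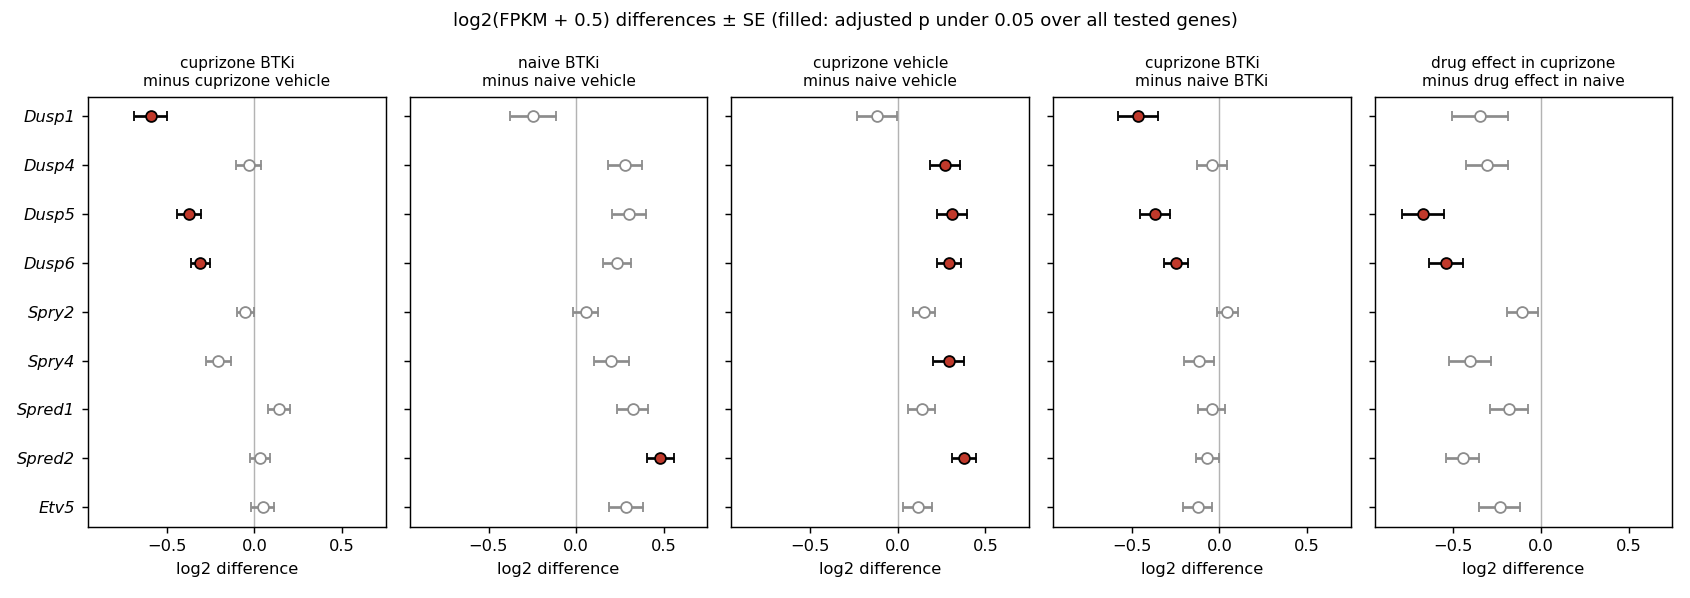
Differences of the 9 genes (rows) on the log2(FPKM + 0.5) scale with bars of ± 1 SE in 5 comparisons (panels); filled points passed the adjusted threshold over all tested genes. Dusp1, Dusp5 and Dusp6 are filled and left of 0 for cuprizone BTKi minus cuprizone vehicle, at -0.59, -0.37 and -0.31, and Spred2 alone is filled for naive BTKi minus naive vehicle, at 0.48.

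In naive mice 8 of 9 members had a higher mean with the inhibitor. Spred2 rose by 0.48 on the log2 scale (SE 0.08), to 140.2% of the naive vehicle level, and was the 1 member of 9 that passed, where 0.217% of all tested genes did and 0.105% were higher. Of all tested genes 16 were higher and 17 lower, against 23 and 16 with median ratio scaling and 22 and 7 with quantile normalization. Dusp5 with 0.30 (SE 0.10) and Dusp6 with 0.23 (SE 0.08) did not pass, although their libraries did not overlap. Including Spred2, 3 of 9 members had all naive BTKi libraries above all naive vehicle ones, as did 2.43% of tested genes. Spred1 had 0.32 (SE 0.09), Etv5 0.28 (SE 0.10), Dusp4 0.28 (SE 0.10), Spry4 0.20 (SE 0.10) and Spry2 0.05 (SE 0.07), whose sign turned (-0.0057) without naive vehicle library 2.

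Dusp1 was the exception in sign, at -0.25 (SE 0.13), and did not pass. The median of the 9 was 0.28 against -0.02 for all tested genes. The 7 myelin markers summed to 2891 to 2962 FPKM in naive BTKi and 3338 to 4695 in naive vehicle, without overlap, and 0 of 7 passed with limma (2 of 7 lower at an unadjusted p under 0.05). Oligodendrocyte precursor markers summed to 101.4 to 112.5 FPKM in naive BTKi and 114.2 to 149.5 in naive vehicle, also without overlap, and 0 of 7 passed with limma (3 of 7 lower unadjusted). Those 3 were Sox10 at -0.42, Olig1 at -0.26 and Olig2 at -0.26. The others had smaller log2 differences, -0.19 for Cspg4, -0.08 for Gpr17, -0.06 for C1ql1 and -0.06 for Pdgfra. The 8 striatal markers summed to 225.1 to 373.0 FPKM in naive BTKi and 237.4 to 687.1 in naive vehicle. The part of these in the members' differences was not tested. The Spred2 call was lost where only the naive groups were fitted.

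The difference between the drug effects, cuprizone minus naive, was tested as an interaction. Dusp5 had an interaction of -0.67 on the log2 scale (SE 0.12) and Dusp6 of -0.54 (SE 0.10), and both passed: their means with the inhibitor were lower in cuprizone mice and higher in naive mice than with vehicle. That is 2 of 9 members, where 0.125% of tested genes passed and 0.118% were lower. Spred2 with -0.45 (SE 0.09), Spry4 with -0.41 (SE 0.12), Dusp1 with -0.35 (SE 0.16) and Dusp4 with -0.31 (SE 0.12) did not pass, nor did Etv5 with -0.24, Spred1 with -0.18 and Spry2 with -0.11. The median of the 9 was -0.35 and that of all tested genes -0.0027. Without naive BTKi library 4, 0 of 9 passed, without naive BTKi library 3, 1 did, and Dusp5 was also lost without naive vehicle library 4. Without the 3 choroid-poor cuprizone vehicle libraries 0 of 9 passed, at -0.64 for Dusp5 and -0.51 for Dusp6.

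**Figure D3:**
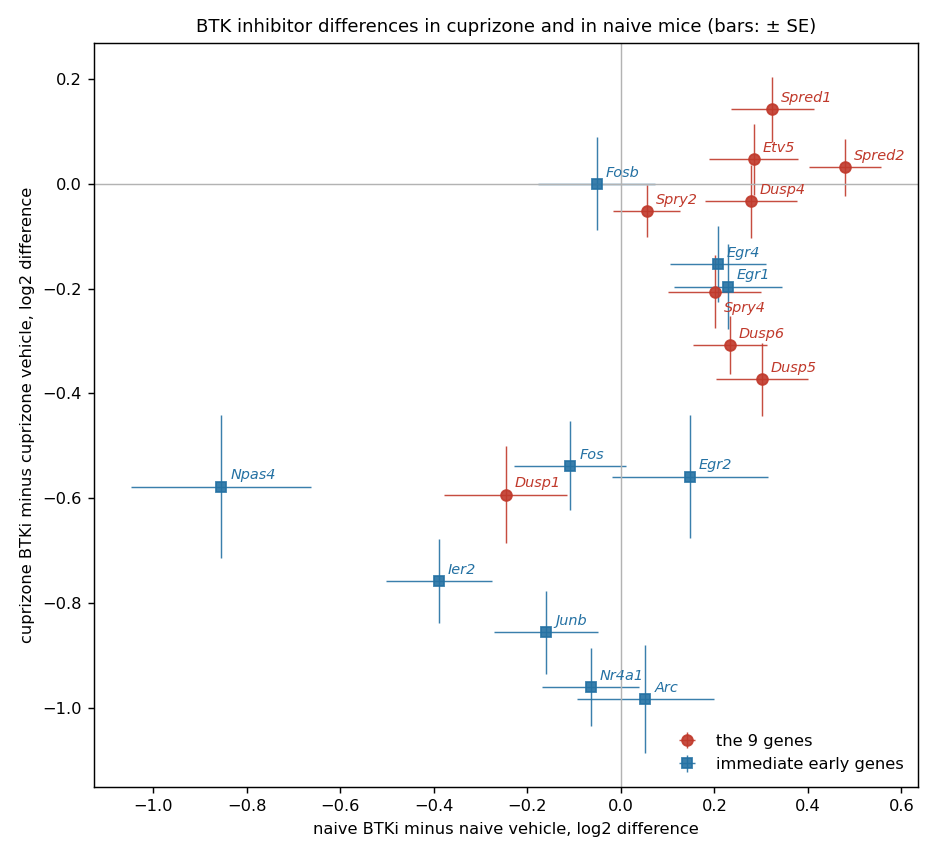
Log2 difference between BTKi and vehicle in naive mice (horizontal axis) and in cuprizone mice (vertical axis) for the 9 genes (circles) and 10 immediate early genes (squares), with bars of ± 1 SE. Dusp5 and Dusp6 lie at 0.30 and 0.23 in naive mice and at -0.37 and -0.31 in cuprizone mice, and Nr4a1 and Arc lie at -0.96 and -0.98 in cuprizone mice and near 0 in naive mice.

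Cuprizone feeding without the inhibitor was read from cuprizone vehicle against naive vehicle, which shares its libraries with the comparisons above. Spred2 rose by 0.38 on the log2 scale (SE 0.07), Dusp5 by 0.31 (SE 0.09), Dusp6 by 0.29 (SE 0.07), Spry4 by 0.29 (SE 0.09) and Dusp4 by 0.27 (SE 0.09). These 5 of 9 passed, where 15.0% of all tested genes passed and 10.2% were higher. Of all tested genes 1555 were higher and 733 lower, against 1241 and 961 with median ratio scaling and 1205 and 1072 with quantile normalization. Spry2 had 0.15, Spred1 0.14, Etv5 0.11 and Dusp1 -0.12, and none of these passed. The libraries of Dusp5 and Spred2 did not overlap between the groups, as for 5.92% of tested genes in the higher direction. The median of the 9 was 0.27 and that of all tested genes 0.03.

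The make-up of the tissue differed widely here. Mature oligodendrocyte markers summed to 1064 to 1756 FPKM in cuprizone vehicle and 3338 to 4695 in naive vehicle, and 7 of 7 fell. Microglial markers summed to 187.4 to 472.4 FPKM in cuprizone vehicle and 121.1 to 147.4 in naive vehicle, with 5 of 7 higher, and astrocyte markers to 1015 to 1164 FPKM in cuprizone vehicle and 749.4 to 881.8 in naive vehicle, with 4 of 7 higher and 1, Gja1, lower. The Gja1 call was lost without the 3 choroid-poor libraries. Oligodendrocyte precursor markers summed to 93.7 to 112.8 FPKM in cuprizone vehicle and 114.2 to 149.5 in naive vehicle, with 2 of 7 lower, Sox10 and Olig1. With limma 1 of 7 was higher at an unadjusted p under 0.05. Striatal markers summed to 131.8 to 241.4 FPKM in cuprizone vehicle and 237.4 to 687.1 in naive vehicle, with 8 of 8 lower. Of these, the calls of Rgs9, Drd2 and Penk were lost without the 3 choroid-poor libraries, and those of Adora2a, Rgs9, Drd2 and Penk without naive vehicle library 2 (limma adjusted p of up to 0.218). The part of these shifts in the members' differences was not tested. Without the 3 choroid-poor libraries, Dusp6, Spred2 and Spry4 still passed and Dusp4 and Dusp5 did not. The Dusp4 call was lost in 11 of 34 alternative fits, and those of Dusp5 and Spry4 were each lost on leaving out 1 naive vehicle library (library 4 for Dusp5, library 1 or 2 for Spry4).

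Among inhibitor-treated mice, cuprizone BTKi was set against naive BTKi. Dusp1 fell by 0.47 on the log2 scale (SE 0.11), Dusp5 fell by 0.37 (SE 0.09) and Dusp6 fell by 0.25 (SE 0.07). These 3 of 9 passed, where 7.87% of all tested genes passed and 1.77% were lower. Of all tested genes 929 were higher and 269 lower, against 768 and 415 with median ratio scaling and 724 and 395 with quantile normalization. All cuprizone BTKi libraries of Dusp5 and Dusp6 lay below all naive BTKi ones, as for 1.47% of tested genes. The other 6 members had log2 differences between -0.12 for Etv5 and 0.04 for Spry2, and the median of the 9 was -0.12 against 0.02 for all tested genes. Mature oligodendrocyte markers summed to 1193 to 2549 FPKM in cuprizone BTKi and 2891 to 2962 in naive BTKi, with 7 of 7 lower, of which Cnp was lost without naive BTKi library 2, 3 or 4. Microglial markers summed to 206.2 to 367.5 FPKM in cuprizone BTKi and 130.7 to 145.2 in naive BTKi, with 5 of 7 higher, and astrocyte markers to 1046 to 1264 FPKM in cuprizone BTKi and 780.9 to 833.4 in naive BTKi, with 4 of 7 higher. The part of these in the members' differences was not tested. Without naive BTKi library 4, only Dusp5 of the 9 passed.

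**Figure D4:**
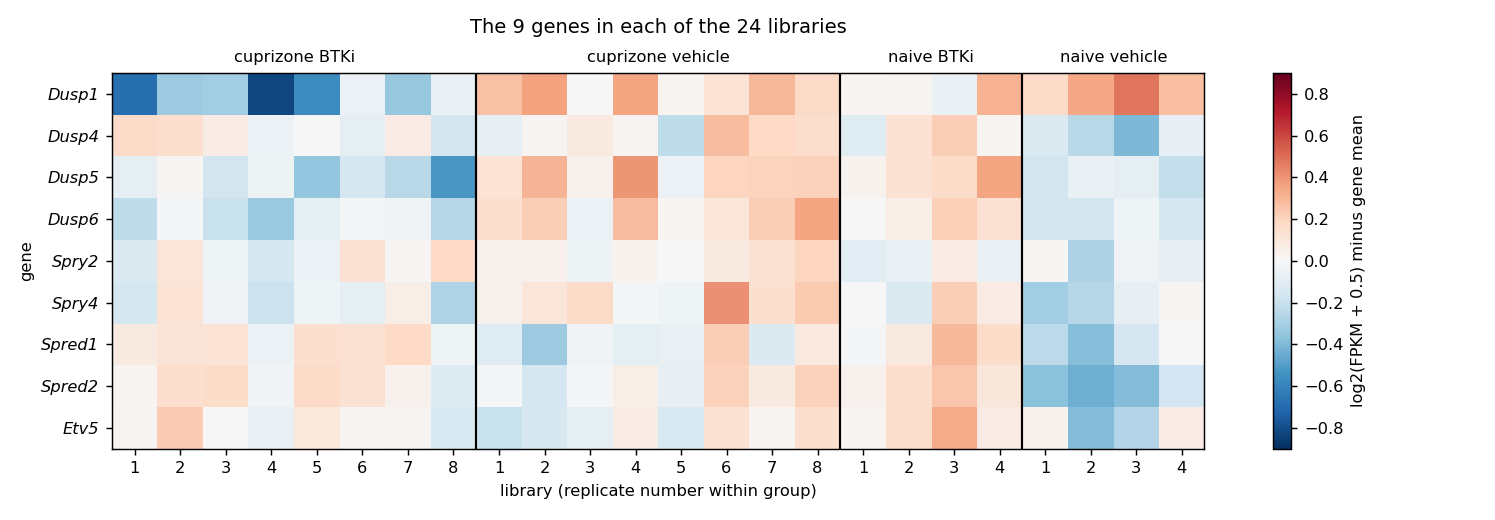
Level of the 9 genes (rows) in each of the 24 libraries (columns, by group and replicate number), as log2(FPKM + 0.5) minus the gene's mean over all libraries, red above and blue below. The Dusp1 row is blue in the cuprizone BTKi libraries, and the Spred2 row is blue in the 4 naive vehicle libraries.

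Within groups the members did not vary as 1 block. For each pair, profiles over the 24 libraries were centred in each group and scaled, and their root mean square difference was taken, where 0 is identical and 1.41 is what unrelated profiles give. Spred1 and Spred2 were the closest pair at 0.585, followed by Spred2 and Etv5 at 0.611 and Dusp4 and Etv5 at 0.706. Dusp1 and Dusp4 were the farthest apart, at 1.59. All points share libraries and their depth, so these are descriptions.

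By the same measure over 24 libraries, the tested genes outside the 9 whose within-group profiles came nearest were Homer1 (0.409) and Schip1 (0.501) for Etv5, Coro1a (0.561) and Rilpl1 (0.630) for Spry2, and Sik2 (0.602) and Xbp1 (0.626) for Dusp4. Nuak1 (0.598) and Myadm (0.606) were nearest to Spred2, and E330009J07Rik (0.574) and Fnbp1l (0.598) to Spred1. For the phosphatases that fell in cuprizone mice, the nearest were Mepce (0.648) and Ep300 (0.728) for Dusp1, Bace2 (0.722) and Prrc2c (0.724) for Dusp5, and Gpsm2 (0.718) and Spats2l (0.774) for Dusp6. Spry4 was nearest to Gm20712 (0.659) and Osbpl3 (0.712). For each member these are the smallest differences among 15196 genes compared. The value of 1.41 holds for a pair of unrelated profiles taken without such a search. How small the smallest of 15196 unrelated profiles would be was not tested, so the names are a description.

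Relatives of the members were measured as well. Dusp2 averaged 0.38 to 0.46 FPKM and Dusp9 0.17 to 0.21 over the groups, too low to be tested. Dusp14, an atypical dual-specificity phosphatase, averaged 36.1 FPKM in cuprizone BTKi, 35.5 in cuprizone vehicle, 39.0 in naive BTKi and 34.8 in naive vehicle. Dusp7, a cytoplasmic ERK phosphatase like Dusp6, averaged 27.3, 27.2, 28.2 and 25.3 FPKM in the same groups. Dusp10 and Dusp16, which act on p38 and JNK, stayed between 2.67 and 3.39 FPKM as group means. Spry1 averaged 3.27 to 3.91, Spred3 15.9 to 18.4, Etv1 18.2 to 19.3 and Etv4 4.44 to 4.91 FPKM over the groups.

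Of 10 other MAPK phosphatases and related genes, atypical ones such as Dusp14 among them, 8 were tested. With limma 0 of 8 passed for the drug in cuprizone mice (2 lower at an unadjusted p under 0.05) and 0 of 8 for the drug in naive mice (1 higher unadjusted). At an unadjusted p under 0.05 the share of all tested genes was 8.79% in cuprizone and 12.6% in naive mice. Dusp10 rose by 0.26 (SE 0.08; limma adjusted p = 0.0472) in cuprizone BTKi against naive BTKi, a call lost in 21 of 34 alternative fits. Of Spry1 and Spred3, 0 of 2 passed in any of the 5 comparisons with limma. In cuprizone mice Spry1 was lower and Spred3 higher with the drug at an unadjusted p under 0.05, and in naive mice Spred3 was higher.

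Of 22 genes of the kinase cascade 0 passed with limma for the drug in cuprizone mice (1 higher and 3 lower unadjusted), and 0 in naive mice (1 higher and 2 lower unadjusted). In cuprizone vehicle against naive vehicle 2 of 22 passed, where 15.0% of all tested genes did: Gab1, a docking adaptor, fell by 0.35 (SE 0.07; limma adjusted p = 0.00164) and Map2k1, which encodes MEK1, rose by 0.13 (SE 0.04; limma adjusted p = 0.0143), a call lost in 3 of 34 alternative fits. Of the 6 related transcription factors, Elk3, a ternary complex factor, rose by 0.52 there (SE 0.10; limma adjusted p = 4.96e-04). Of 11 other negative regulators, Rgs4, an inhibitor of G protein signalling, fell by 0.23 (SE 0.07; limma adjusted p = 0.0357), a call lost in 8 of 34 alternative fits, the one without the 3 choroid-poor libraries among them. Lgals3bp rose by 2.04 (SE 0.23; limma adjusted p = 9.78e-07), and it encodes a secreted galectin-binding glycoprotein and not a direct inhibitor of ERK. The part of the tissue's make-up in these differences between cuprizone vehicle and naive vehicle was not tested.

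Of the genes often read as ERK output, 6 of 7 tested rose in cuprizone vehicle against naive vehicle, where 10.2% of all tested genes did. The median log2 difference of the 7 was 0.39. The make-up of the tissue differed in this comparison, as given above, and its part in these differences was not tested. Plaur and Emp1 were near the 0.5 FPKM filter. Plaur averaged 0.53 FPKM in naive vehicle and 1.62 in cuprizone vehicle, and Emp1 0.85 and 1.29. Plaur, the urokinase receptor, rose by 1.03 (SE 0.15; limma adjusted p = 2.28e-05), Myc by 0.65 (SE 0.11; 1.89e-04), Ccnd1, cyclin D1, by 0.43 (SE 0.06; 1.40e-05) and Emp1 by 0.39 (SE 0.12; 0.0258), although Emp1 was lost in 5 of 34 alternative fits and Ier3 in 8. In cuprizone BTKi against naive BTKi 4 of 7 were higher, where 929 of all 15216 tested genes were. The 4 were Plaur by 0.73, Emp1 by 0.57, Myc by 0.49 and Ccnd1 by 0.27. With the drug 0 of 7 passed with limma in cuprizone mice (1 lower unadjusted), at a median of -0.07, and 0 of 7 in naive mice (1 higher unadjusted), at 0.07.

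In cuprizone vehicle against naive vehicle 4 of 13 receptors of the pathway passed, 2 higher and 2 lower, and 4 of 10 ligands, 2 higher and 2 lower, where 15.0% of all tested genes passed and 10.2% were higher. In that comparison 7 of 7 mature oligodendrocyte markers fell, at a median of -1.33, and 5 of 7 microglial markers rose, at 0.93. The part of such shifts in the receptor and ligand differences was not tested. Erbb3, the neuregulin receptor of oligodendrocytes, fell by 0.99 (SE 0.12; limma adjusted p = 1.45e-06) and Fgfr2 by 0.53 (SE 0.11; 9.98e-04), while Fgfr1 rose by 0.26 (SE 0.07; 0.00888) and Ntrk2 by 0.16 (SE 0.03; 0.00132). The Fgfr1 call was lost without naive vehicle library 3. Among the ligands Igf1 rose by 1.26 (SE 0.20; limma adjusted p = 8.24e-05) and Fgf2 by 0.47 (SE 0.08; 9.43e-05), and Tgfa fell by 0.40 (SE 0.11; 0.0165) and Fgf1 by 0.27 (SE 0.07; 0.00730). The Tgfa call was lost in 3 of 34 alternative fits, without naive vehicle library 2 and without the 3 choroid-poor libraries among them, and the Fgf1 call in 2, without naive vehicle library 2 and with the replicate block. For the drug, 0 of 13 receptors and 0 of 10 ligands passed with limma in cuprizone mice (1 receptor lower unadjusted) or in naive mice (1 receptor and 1 ligand higher and 1 ligand lower unadjusted).

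Immediate early genes, transcribed within minutes of ERK or calcium signals, were the 1 list besides the members with passing genes for the drug in cuprizone mice; it, too, was written with results of these libraries known. There 6 of 10 fell, with a median log2 difference of -0.57. Arc, a synaptic protein, averaged 65.3 ± 13.6 FPKM in cuprizone BTKi and 128.8 ± 21.2 in cuprizone vehicle (SD, n = 8 each) and fell by 0.98 (SE 0.10; limma adjusted p = 4.90e-06). The nuclear receptor Nr4a1 averaged 32.6 ± 4.20 FPKM in cuprizone BTKi and 63.7 ± 6.93 in cuprizone vehicle and fell by 0.96 (SE 0.07; limma adjusted p = 2.40e-08). The AP-1 subunit Junb fell by 0.86 (SE 0.08; 6.13e-07) and Ier2 by 0.76 (SE 0.08; 4.90e-06).

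Fos and Egr2 also fell, although Egr2 was lost in 27 of 34 alternative fits. Without the 3 choroid-poor libraries Arc, Nr4a1, Junb, Ier2 and Fos still passed for the drug in cuprizone mice, with adjusted p-values of up to 0.0301, whereas 0 of the 9 feedback genes did. In naive mice 0 of 10 immediate early genes passed with limma (2 lower unadjusted). The interaction passed for Arc at -1.03 (SE 0.18; limma adjusted p = 0.0103), Nr4a1 at -0.90 (SE 0.13; 0.00187) and Junb at -0.70 (SE 0.14; 0.0305), and the call of Junb was lost in 14 of 33 alternative fits. Without the 3 choroid-poor libraries the interaction of Nr4a1 still passed (limma adjusted p = 0.00984), and those of Arc (0.0737) and Junb (0.142) did not. For the drug in naive mice Arc had a log2 difference of 0.05 (SE 0.15) and Nr4a1 of -0.06 (SE 0.10), where Dusp5 had 0.30 and Dusp6 0.23. Egr1, Egr4 and Egr2 had 0.23, 0.21 and 0.15 in naive mice and -0.20, -0.15 and -0.56 in cuprizone mice. The rest of the list had, in naive mice, -0.05 for Fosb, -0.11 for Fos, -0.16 for Junb, -0.39 for Ier2 and -0.85 for Npas4. In cuprizone mice Fos had -0.54, Npas4 -0.58 and Fosb -0.00014, of which only Fos passed. Npas4 thus had the larger difference in naive mice, and Fosb had almost none in cuprizone mice. The difference between these genes was not tested. In cuprizone BTKi against naive BTKi 6 of 10 immediate early genes fell, where 1.77% of all tested genes were lower. The median log2 difference of the list was -0.48 there, and Dusp1, Dusp5 and Dusp6 fell in the same comparison. Arc, Nr4a1, Junb and Ier2 kept that call in all 34 alternative fits, while Egr2 lost it in 1 and Egr4 in 18.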

How the data were processed

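Per the labels' protocols, RNA of the corpus callosum was extracted with Qiagen's RNeasy Micro kit and its polyadenylated part sequenced from 24 stranded TruSeq mRNA libraries. The authors deposited 1 table of FPKM values (fragments per kilobase of transcript, scaled to the library's total) for 54446 Ensembl IDs; 54409 were matched to a symbol. The aligner, counter, build and annotation: not given in the sources used here. Printed gene coordinates are those of GENCODE M21 (GRCm38) where the ID and version match; Dusp1 and Spry4 differ in version and get none. FPKM depends on the other genes of a library; total FPKM ran from 462521 to 496350. Depth was estimated from genes with 1 annotated transcript, whose low values lay within 0.1 of a whole multiple in 89.6% to 91.4% of cases, against 20.0% by chance. Count tests need counts and were not used.

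The 15216 genes averaging at least 0.5 FPKM were fitted in R 4.3.3 with limma 3.58.1, using lmFit, contrasts.fit and a trended eBayes on log2(FPKM + 0.5), all 4 groups in 1 model, Benjamini-Hochberg adjusted over all tested genes within each comparison at 0.05. The fit was tested on simulated data. A fold change on this scale understates the change of low genes. Members and lists were chosen with earlier results of these data known. All 9 members are named; from each other list, up to 4 passing genes with the largest absolute difference. Alternatives were other pseudocounts, filters, scalings, no trend, only the groups compared, a replicate block and each library left out; leaving out the 3 choroid-poor cuprizone vehicle libraries was added after seeing the data. The 68 replicate pairs differed by an SD of 0.208 to 0.335 (log2), and none looked like 1 library deposited again. Promoters are from RefSeq (GRCm38.p6), matched by symbol for 7 of 9 members. Other steps ran in Python 3.11.15 (numpy 2.4.6, pandas 2.3.3, matplotlib 3.10.9).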

Additional observations from a re-analysis of the deposited data

Results flagged for a closer look

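Dusp6 in naive vehicle library 3 had 25.0 FPKM, while the other 3 libraries of that group lay at 22.9 FPKM; its gap to the nearest was 0.971 of the group's range. Spry2 in naive BTKi library 3 had 24.4 FPKM, with a gap of 0.833 of the range. Of 36 sets of 1 gene in 1 group, chance marks about 1 in 20 in this way.

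The drug effect on Dusp5 differed between cuprizone and naive mice by -0.67 on the log2 scale and that on Dusp6 by -0.54, by the interaction term of the limma fit. The members were chosen with these results known, so this is a description.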

How the results depend on the processing

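No member's passing difference changed sign under any of the 34 alternative fits (33 for the interaction). Without the 3 choroid-poor cuprizone vehicle libraries, the members that passed were 0 for the drug in cuprizone mice, 3 for cuprizone under vehicle and 0 for the interaction. All genes that passed were then 11 for the drug in cuprizone mice, 19 for the drug in naive mice and 7 for the interaction. With no filter on low values 16 genes passed for the drug in cuprizone mice, against 27, and 21 in naive mice, against 33; more genes were then tested. Fitting only the naive groups left 3 genes and 0 members for the drug in naive mice. Quantile normalization left 3 members for cuprizone under vehicle. The cause of these losses was not tested.

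Leaving out 1 library gave 14 to 34 genes for the drug in cuprizone mice, 7 to 41 in naive mice and 8 to 23 for the interaction; members ranged from 3 to 5 for cuprizone under vehicle, 1 to 3 under BTKi and 0 to 3 for the interaction. Beyond the losses already named, the Dusp5 call in cuprizone mice was lost with no filter and with only the cuprizone groups fitted. Dusp6 under BTKi was also lost with no filter and without naive BTKi library 3. The Spred2 interaction passed without naive vehicle 4, cuprizone BTKi 3, cuprizone vehicle 2 or cuprizone vehicle 5. Replicate numbers did not pair samples: 28 same-numbered pairs had correlations of deviations of -0.27 to 0.32 (median 0.0015), and 180 other pairs a median of -0.0034. A replicate block left 3 members for cuprizone under vehicle and 1 member and 9 genes for the interaction, where Dusp6 at -0.54 was lost. Estimated counting error was largest for Dusp4 (5.55%), Dusp5 (4.33%) and Spry4 (4.30%), and its part in the lost calls was not tested.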
